A study of Arabidopsis thaliana with 6 samples.

Results

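The genes described are the expansins, xyloglucan-remodelling enzymes, cellulose synthase-like glycan synthases, TBL acetyltransferases and pectin enzymes of Arabidopsis thaliana, read on Affymetrix arrays in whole 5-day-old seedlings. They were chosen by name only: all probe sets that the platform annotation gives a single gene and whose symbol begins with a family name (EXPA, EXPB, EXL, XTH, CESA, CSLA to CSLG, PME, TBL, FLA, AGP, GAUT, GATL, PRP, PGIP, EXT or LRX) followed by a number. The rule found 57 genes among 13356 with such a probe set, each with a single probe set: 22 TBL, 10 EXPA, 9 XTH, 5 CSLC, 4 EXPB, 2 CSLA, 2 PRP and 1 each of CSLD, GAUT and PME. CESA, FLA, AGP, EXL, GATL, PGIP, EXT and LRX genes had no probe set that met the rule and were not analysed here, so arabinogalactan proteins and extensins, the structural proteins of the label, are not described. The label also does not hold for PRP39 and PRP39-2, which the rule took up by their letters: PRP39 is a factor of pre-mRNA processing, not a proline-rich wall protein.

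There were 3 genotypes with 2 arrays each, called biological replicates in the labels: wild type (WT), a line labelled atvap mutant, and the wild type with overexpressed TaVAP (TaVAPOE). All seedlings were grown on OS medium with 16 h light and 8 h dark and had no treatment. By its title the series concerns TaVAP and stress tolerance; VAP proteins sit in the endoplasmic reticulum membrane and tether it to other membranes. The labels give neither the mutated locus nor the promoter of the transgene, and the transgene was not analysed here.

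The plant cell wall is a network of cellulose microfibrils tied by xyloglucan and embedded in pectin. Expansins loosen it without cutting polymers, and XTH enzymes cut and rejoin xyloglucan. CSLA and CSLC proteins synthesise backbones of non-cellulosic glycans in the Golgi. TBL proteins add acetyl groups to wall polysaccharides on their way to the surface. Together these families set how far a seedling cell can expand, and many of their genes are read in a few cell types such as root hairs.

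Values are readings in log units of the deposited scale, whose base is not stated, so differences are given in log units and no fold is given. The level of a probe set depends on its probes, so results compare levels between arrays. Between genes, levels served only for filters, medians over gene sets and the choice of genes to name. The readings of replicate 1 of WT and of the mutant stood apart. The top percentile of all probe sets began at 5.78 on WT replicate 1 and 4.84 on mutant replicate 1. On the other 4 arrays it began at 7.65 to 7.78, while the array medians were close, at 2.74 to 2.88. Bright probe sets as a whole thus read lower on replicate 1 of WT and mutant. Whether the low reading of any bright gene there goes beyond this was not tested. Among the other 4 arrays Pearson r over 22746 probe sets was 0.94 to 0.98. WT replicate 1 had no r above 0.53 with these 4, and mutant replicate 1 none above 0.19 with any other array. These correlations run across probe sets, which are not independent replicates. The 4 green-tissue markers measured averaged 2.91 on mutant replicate 1, 6.58 on WT replicate 1 and 7.60 to 7.77 on the other 4 arrays. Green tissue was thus read brightly on these 4. On WT replicate 1 RCA and LHCB4.1 read 9.03 and 9.09, within the range of their readings on these 4. LHCB4.2 and LHCB4.3 read 3.94 and 4.28 there, below that range. On mutant replicate 1 all 4 markers read lower than on any other array. No root marker of the list was analysed here. Of 11 pollen or anther markers 5 were measured, and their mean lay between 1.76 and 2.96 on the 6 arrays. Because of the discordant arrays, differences and counts are given over 6 arrays, over the 4 concordant ones, or over both. On the 4, WT and the mutant have 1 array each and the spread is that of the TaVAPOE pair alone.

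The wall genes showed the same split. Among the 57 members the TaVAPOE replicates correlated at 0.94, against 0.41 in WT and 0.27 in the mutant (57 probe sets of the same arrays). Replicates lay more than 1 log unit apart for 23 members in WT, 20 in the mutant and 2 in TaVAPOE; over all 13356 genes this was so for 47.8%, 49.1% and 1.51%. TBL32 was an extreme case, at 5.17 on mutant replicate 1 and 2.23 on replicate 2, and its probe set is of a class that can match several transcripts. XTH18 went the other way, at 2.91 and 6.52 on the same arrays.

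**Figure D1:**
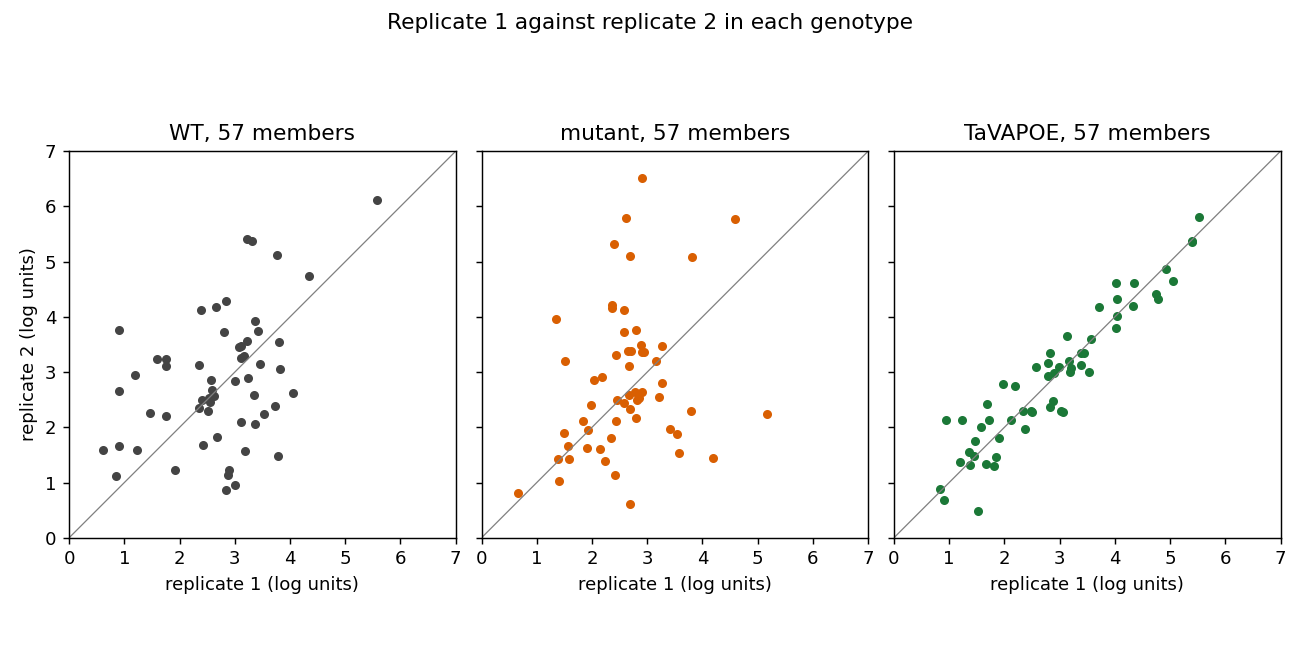
Reading of each of the 57 genes on replicate 1 (x axis) and replicate 2 (y axis) in log units, a panel per genotype, with the line of equality. The TaVAPOE points follow the line (r = 0.94), while those of WT (0.41) and the mutant (0.27) scatter.

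On the deposited values none of the 57 members passed the test in any comparison. In 1 limma fit over all probe sets with Benjamini-Hochberg adjustment, 0 of the 57 members had an adjusted p under 0.05 over 6 arrays between mutant and WT, TaVAPOE and WT, or TaVAPOE and mutant, where 0% of all probe sets passed in each. Without adjustment 1, 3 and 3 members had a p under 0.05, as did 0.958%, 2.14% and 1.31% of all probe sets. Over the 4 concordant arrays 0 members passed either, with 0%, 0.0396% and 0.0659% of all probe sets, and before adjustment 4 (7.02%), 18 (31.6%) and 15 (26.3%) members had a p under 0.05. Over all probe sets these shares were 13%, 21.1% and 14.8%, above that of the members for mutant and WT and below it for the other two. Tools other than limma were not run. With quantile normalization among the 4 arrays, a setting chosen after seeing the data, 4 members passed between TaVAPOE and WT (TBL36, EXPA4, XTH18 and XTH21) and 3 between TaVAPOE and mutant (TBL36, EXPA4 and XTH18), beside 3.22% and 0.906% of all probe sets; 0 passed between mutant and WT, beside 0.0176%. The values below are therefore descriptions of 6 arrays, and in whole seedlings a change in the share of a cell type and a change in RNA per cell cannot be told apart.

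Both TaVAPOE arrays read above all 4 other arrays for 8 members, EXPA4, EXPA15, EXPB3, XTH32, CSLC04, CSLC5, TBL36 and TBL45, and below all 4 for EXPA18 and TBL34. That is 14% of the members on the higher side, where 13.6% of all probe sets did so, and 3.51% on the lower side, where 9.1% did.

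TBL36, a member of the acetyltransferase family, had the largest of these differences over 6 arrays. It read 3.11 and 3.25 in WT and 2.70 and 3.38 in the mutant. In TaVAPOE it read 5.40 and 5.36. The TaVAPOE arrays thus lay well clear of the other 4, which lay close together, the discordant arrays included. The difference from WT was 2.20 ± 0.48 log units over 6 arrays (limma adjusted p = 0.870) and 2.13 ± 0.19 over 4 (adjusted p = 0.0777); errors with ± are limma's moderated standard errors. From the mutant it was 2.34 ± 0.48 (adjusted p = 0.865) and 1.998 ± 0.19 (adjusted p = 0.0875). The 2 comparisons share the TaVAPOE arrays.

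Among the expansins, EXPA4, an alpha-expansin, read 3.12 and 2.096 in WT, 2.85 and 2.53 in the mutant, and 4.34 and 4.19 in TaVAPOE. It was 1.66 ± 0.54 above WT over 6 arrays (adjusted p = 0.870) and 2.17 ± 0.20 over 4 (adjusted p = 0.0777). EXPB3, a beta-expansin, read 3.24 and 2.90 in WT, 2.04 and 2.85 in the mutant, and 4.04 and 4.01 in TaVAPOE, again with no overlap. Its difference from WT was 0.96 ± 0.50 over 6 arrays and 1.13 ± 0.19 over 4 (adjusted p = 0.0942). EXPA15 was also highest on both TaVAPOE arrays, at 3.72 and 4.17 against 2.81 to 3.46 on the others.

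The other expansins did not follow these. Over the 4 concordant arrays 4 of the 10 EXPA genes read higher in TaVAPOE than in WT and 6 lower. Their median was -0.10 log units and the range ran from -1.07 to 2.17. Over 6 arrays 3 read higher and 7 lower, with a median of -0.16. The root-hair expansins EXPA7 and EXPA18 were on the lower side: EXPA18 read 2.12 and 2.14 in TaVAPOE and 2.30 to 2.59 elsewhere, and EXPA7 read 1.69 and 2.42 in TaVAPOE, 3.12 on WT replicate 2 and 1.76 on WT replicate 1. EXPA8, the EXPA gene with the highest mean reading on those 4 arrays, lay between 3.35 and 3.76 on them. EXPB1, EXPB2 and EXPB5 differed between TaVAPOE and WT by -0.18, 0.03 and 0.12 log units over the 4 arrays. Over 6 arrays these differences were -0.26, 0.21 and -0.72. EXPB5 read below 1.66 on all 4 concordant arrays. That value is the 20th percentile of all readings. It serves as a stand-in for background; detection calls were not used here.

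Xyloglucan-remodelling genes split in both directions. XTH32 read 2.796 and 3.72 in WT, 2.35 and 4.17 in the mutant, and 5.05 and 4.64 in TaVAPOE, 1.59 ± 0.74 above WT over 6 arrays and 1.13 ± 0.25 over 4 (adjusted p = 0.124). XTH18 went the other way, at 5.57 and 6.11 in WT and 4.92 and 4.86 in TaVAPOE (-0.95 ± 1.15 over 6 arrays and -1.22 ± 0.19 over 4, adjusted p = 0.0915). WT and TaVAPOE did not overlap for either gene.

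Against the mutant, XTH18 turned with the arrays used. The mutant arrays read 2.91 and 6.52, so TaVAPOE was 0.18 ± 1.15 above the mutant over 6 arrays and differed by -1.63 ± 0.19 over 4 (adjusted p = 0.0962). XTH33, whose protein carries a predicted membrane anchor, read 3.11 and 3.47 in WT, 2.65 and 3.38 in the mutant. Its TaVAPOE readings were 2.19 and 2.75. They were below both WT arrays (-0.82 ± 0.52 over 6 arrays, -1.002 ± 0.30 over 4), but 1 of them was above mutant replicate 1.

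XTH21 read 0.86 on WT replicate 2 and 1.95 to 2.38 on the other concordant arrays, and 2.84 on WT replicate 1. With readings raised to 1.66 its difference between TaVAPOE and WT over 4 arrays was 0.52 in place of 1.32. Over the 9 XTH genes the median size of that difference, in either direction, was 0.75 log units, against 0.38 over all 57 members and 0.28 over all genes; over 6 arrays it was 0.75, against 0.38 and 0.57. The TaVAPOE replicates also lay farther apart for the XTH genes, by a median of 0.41, against 0.29 over the members and 0.20 over all genes.

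The 5 CSLC genes, whose proteins synthesise the glucan backbone of xyloglucan, were measured in full. CSLC04 read 4.34 and 4.73 in WT, 2.41 and 5.33 in the mutant, and 5.40 and 5.37 in TaVAPOE. It differed from WT by 0.85 ± 0.96 over 6 arrays and 0.65 ± 0.19 over 4 (adjusted p = 0.168), but by -0.077 with quantile normalization of the 6 arrays. CSLC5 lay at 3.57 and 3.61 in TaVAPOE and between 2.95 and 3.36 on the other 4 arrays. On the concordant arrays 4 of the 5 read above WT in TaVAPOE (median 0.51) and 4 of 5 in the mutant (median 0.26). Over 6 arrays these counts were 2 and 1, with medians of -0.02 and -0.16. WT replicate 1 read ATCSLC08 at 3.72 and CSLC6 at 4.05, above every other array, and mutant replicate 1 read CSLC04 low.

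CSLD2, a cellulose synthase-like gene of tip-growing root hairs, read 3.31 and 5.37 in WT, 4.58 and 5.77 in the mutant, and 4.79 and 4.32 in TaVAPOE. Over 4 arrays TaVAPOE differed by -0.82 ± 0.27 from WT and by -1.21 ± 0.27 from the mutant (adjusted p = 0.203 and 0.205), and over 6 arrays by 0.21 ± 0.83 from WT, with the sign turned. CSLA03, of the family of glucomannan synthases, read 3.16 and 3.19 in TaVAPOE, 3.55 on WT replicate 2 and 3.96 on mutant replicate 2, but 1.34 on mutant replicate 1. CSLA01 was lower on both mutant arrays (1.49 and 1.90) than on the other 4 (2.37 to 2.82).

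**Figure D2:**
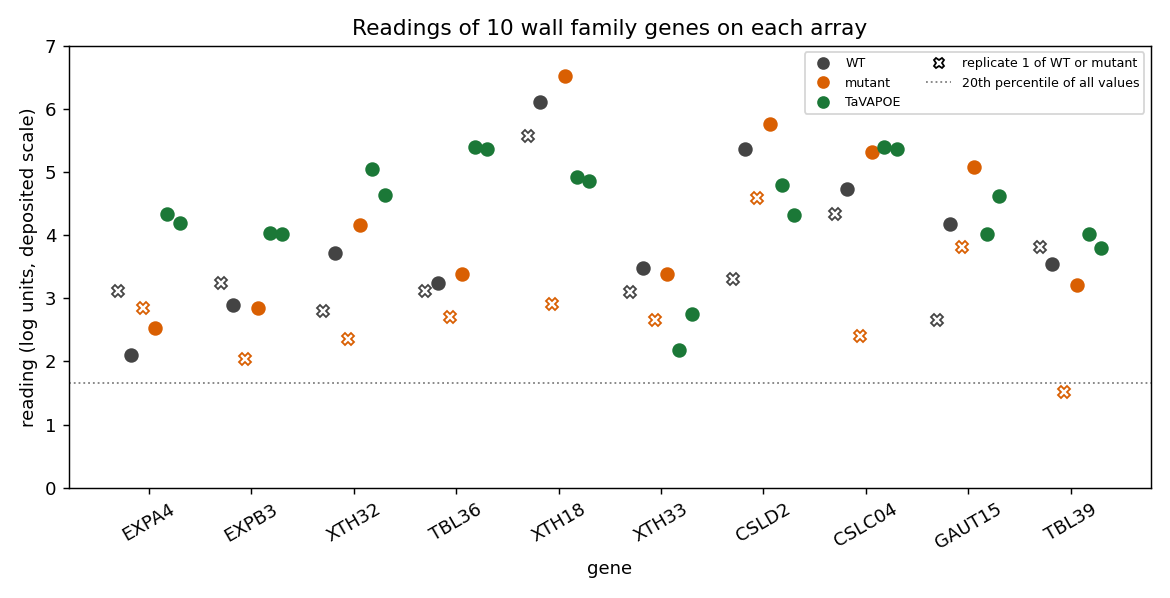
Readings in log units of 10 genes on each of the 6 arrays; crosses mark the discordant replicate 1 of WT and mutant, and the dotted line is the 20th percentile of all values (1.66). TBL36, EXPA4, EXPB3 and XTH32 have both TaVAPOE points above all others, and XTH18 has its low mutant cross at 2.91 beside 6.52.

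The TBL family supplied 22 of the 57 genes, and its median differences were near those of all genes: -0.13 between TaVAPOE and WT over 6 arrays and -0.09 over 4, where all genes had -0.04 and -0.03. On the concordant arrays 11 of the 22 read higher in TaVAPOE and 11 lower. Between mutant and WT, 1 array each there, 7 read higher and 15 lower, with a median of -0.21 against -0.01 over all genes. Of all 13356 genes, 6504 read higher and 6808 lower on these arrays. Over 6 arrays 10 TBL genes read higher in the mutant and 12 lower, with a median of -0.10 against 0.01. The sign turned between the 2 sets of arrays for 9 of the 22.

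Genes of xylan acetylation lay on both sides. TBL34 read 3.53 and 2.25 in WT, 1.57 and 1.66 in the mutant, and 1.45 and 1.48 in TaVAPOE. Both WT arrays were above the other 4, of which 3 were below 1.66; TaVAPOE differed from WT by -1.42 ± 0.57 over 6 arrays and -0.78 ± 0.19 over 4, or -0.59 over 4 with readings raised to 1.66. TBL35 read 3.45 and 3.14 in WT and 2.90 and 2.98 in TaVAPOE. Its gap was smaller, at -0.36 ± 0.46 over 6 arrays and -0.20 ± 0.19 over 4. TBL28 was lowest in WT, at 1.76 and 2.20, and read 3.21 and 2.55 in the mutant and 2.87 and 2.47 in TaVAPOE.

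Among the genes related to mannan acetylation, TBL25 read 2.40 and 2.49 in WT, 2.44 and 3.31 in the mutant, and 3.39 and 3.13 in TaVAPOE, with 0.82 ± 0.51 between TaVAPOE and WT over 6 arrays and 0.77 ± 0.22 over 4 (adjusted p = 0.164). TBL23 read lower on both mutant arrays (2.77 and 2.64) than on both WT arrays (3.82 and 3.05). The difference was -0.73 ± 0.51 over 6 arrays and -0.41 ± 0.33 over 4. TBL26 did not separate WT from TaVAPOE on the concordant arrays (0.02 ± 0.29). Over 6 arrays its difference was 0.76 ± 0.67, with 1.76 on WT replicate 1.

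TBL39 had its widest gap in the mutant. It read 3.81 and 3.55 in WT, 1.51 and 3.21 in the mutant, with TaVAPOE at 4.01 and 3.796. The mutant differed from WT by -1.32 ± 0.67 over 6 arrays (adjusted p = 0.9999) and by -0.34 ± 0.24 over the concordant arrays, so most of the gap came from mutant replicate 1. TBL37, the TBL gene with the highest mean on the concordant arrays, read 5.11 on both replicate 2 arrays of WT and mutant and 4.35 and 4.62 in TaVAPOE, but 3.76 and 2.68 on the discordant arrays. TBL38 differed from WT on the concordant arrays by -0.43 ± 0.33 in the mutant and -0.53 ± 0.28 in TaVAPOE, and TBL18 by 0.59 ± 0.22 and 0.25 ± 0.19.

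Pectin enzymes had 1 gene of each family. GAUT15, of the galacturonosyltransferases that build homogalacturonan, read 2.66 and 4.17 in WT, 3.82 and 5.08 in the mutant, and 4.03 and 4.62 in TaVAPOE. Its mutant-minus-WT difference was 1.03 ± 0.74 over 6 arrays and 0.91 ± 0.36 over 4 (adjusted p = 0.404), and the WT and mutant arrays overlapped. PME61, a pectin methylesterase, which removes methyl groups from that polymer, read 3.36 and 2.06 in WT and 3.07 and 2.27 in TaVAPOE, with full overlap. PRP39, no wall gene, read 5.52 and 5.81 in TaVAPOE, 5.41 on WT replicate 2 and 5.79 on mutant replicate 2, but 3.22 and 2.62 on the discordant arrays. PRP39-2 was lower on both mutant arrays (0.66 and 0.82) than on both WT arrays (2.69 and 1.82).

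**Figure D3:**
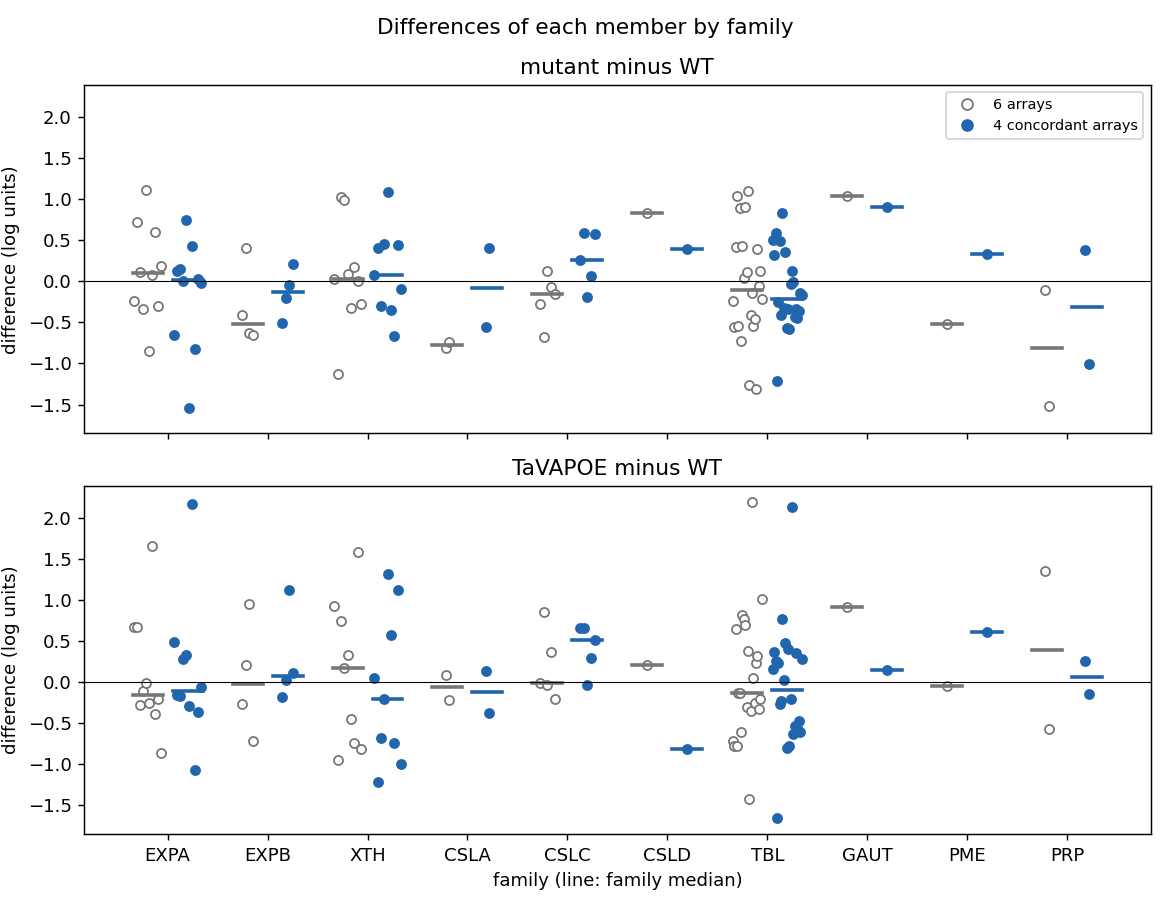
Difference of each gene from WT in log units by family, in the mutant (top) and TaVAPOE (bottom), over 6 arrays (open) and over the 4 concordant arrays (filled), with a line at each family median. Most genes lie within 1 log unit of 0; EXPA4 and TBL36 stand above 2 in TaVAPOE over 4 arrays, and the CSLC median moves from -0.02 to 0.51.

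Over all 57 members, the median difference between mutant and WT was -0.11 log units over 6 arrays and -0.004 over 4, beside 0.01 and -0.01 over all genes. Between TaVAPOE and WT it was -0.03 and 0.03, beside -0.04 and -0.03, and between TaVAPOE and mutant 0.09 and -0.05, beside -0.11 and -0.001. The sign of the difference turned between the 6-array and the 4-array values for 26 members (45.6%) in the mutant-WT comparison and for 16 (28.1%) in each of the others, beside 41.6% of all genes between mutant and WT, 28.5% between TaVAPOE and WT and 36.7% between TaVAPOE and mutant. Without PRP39 and PRP39-2 the 6-array medians were -0.07, -0.03 and 0.05.

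The size of the differences, in either direction, stood to that of all genes in opposite ways on the 2 sets of arrays. On the concordant arrays its median was larger for the members, at 0.38 against 0.27 log units between mutant and WT, 0.38 against 0.28 between TaVAPOE and WT, and 0.35 against 0.23 between TaVAPOE and mutant. Over 6 arrays it was 0.41 against 0.42, 0.38 against 0.57 and 0.44 against 0.53 in the same order. The replicates differed by a median of 0.29 for the members and 0.20 for all genes in TaVAPOE, but by 0.77 against 0.94 in WT and 0.63 against 0.97 in the mutant; the part of this spread in the differences was not tested.

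Counts of genes whose groups did not overlap over 6 arrays were read against all probe sets. Between TaVAPOE and WT 13 members (22.8%) were higher and 10 (17.5%) lower, beside 25.3% and 20.8% of all probe sets. Between TaVAPOE and mutant 16 (28.1%) were higher and 8 (14%) lower, beside 19.8% and 19.7%.

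Between mutant and WT 4 members (EXPA21, XTH20, TBL21 and TBL28) were higher on both mutant arrays, or 7.02% against a background of 10.7%. On the lower side there were 10, EXPA24, EXPB1, EXPB3, CSLA01, TBL20, TBL23, TBL34, TBL35, TBL39 and PRP39-2, or 17.5% against 7.28%. On mutant replicate 1, which enters each of these, the members had a median reading of 2.65 and all genes 2.86, while on mutant replicate 2 both had 2.55. PRP39-2, no wall gene, and TBL20 read below 1.66 on both mutant arrays. EXPA24, CSLA01, TBL34 and TBL39 did so on 1 of them. TBL21 read below 1.66 on 5 arrays, XTH20 on 3 and EXPA21 on 2. With readings raised to 1.66 the 6-array differences were -0.59 for PRP39-2 (from -1.51), -0.40 for TBL20 (from -0.55) and 0.24 for TBL21 (from 0.90).

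On the concordant arrays, genes were counted whose groups lay more than 0.5 log units apart. Between TaVAPOE and WT there were 8 members higher (14%, background 9.65%) and 8 lower (14%, background 10.1%). The higher ones were EXPA4, EXPB3, XTH21, XTH32, ATCSLC08, CSLC04, TBL25 and TBL36, and the lower ones EXPA7, XTH18, XTH29, XTH33, CSLD2, TBL19, TBL30 and TBL34. TBL30 read below 1.66 on all 6 arrays, and with readings raised to that value its difference was 0. XTH21, XTH29, TBL19 and TBL34 read below 1.66 on some of the concordant arrays. Between TaVAPOE and mutant 7 were higher (12.3%, background 6.46%) and 6 lower (10.5%, background 7.16%). Between mutant and WT, a single array each, 8 were higher (14%, background 11.4%) and 10 lower (17.5%, background 12.3%). The share of the members was above the background in each of these directions, by amounts that were not tested.

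Genotype order was spread over all 6 possible orders. On the concordant arrays TaVAPOE was highest for 21 members, lowest for 22 and between the others for 14. The orders with TaVAPOE highest held 17.5% and 19.3% of the members, beside 13.8% and 17.8% of all genes. Those with TaVAPOE lowest held 24.6% and 14%, beside 19.3% and 15.8%. The most frequent order was WT above mutant above TaVAPOE, with 14 members (24.6%) beside 19.3% of all genes, and the least frequent was WT above TaVAPOE above mutant, with 5 (8.77%) beside 18.2%. Over 6 arrays that least frequent order became the most frequent, with 13 members (22.8%) beside 9.72%, and WT above mutant above TaVAPOE had 8 (14%) beside 22.2%. Between the 2 sets of arrays 18 of the 57 members kept their order. The share over all genes was not computed.

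By family, TaVAPOE was highest for 3 of 5 CSLC genes on the concordant arrays and lowest for none. It was lowest for 5 of 9 XTH, 5 of 10 EXPA and 10 of 22 TBL genes, and highest for 3, 3 and 8. Over 6 arrays TaVAPOE was highest for 2 of 5 CSLC, 3 of 9 XTH, 2 of 10 EXPA and 7 of 22 TBL genes, and lowest for 2, 3, 4 and 8 of them. Over all genes, the orders with TaVAPOE lowest held 19.3% and 15.8% on the concordant arrays, and 22.2% and 20.6% over 6 arrays. The orders with TaVAPOE highest held 13.8% and 17.8% of all genes, and 17.5% and 16.4% over 6 arrays. Family counts were not tested against these shares. These orders take no account of the size of the gaps.

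**Figure D4:**
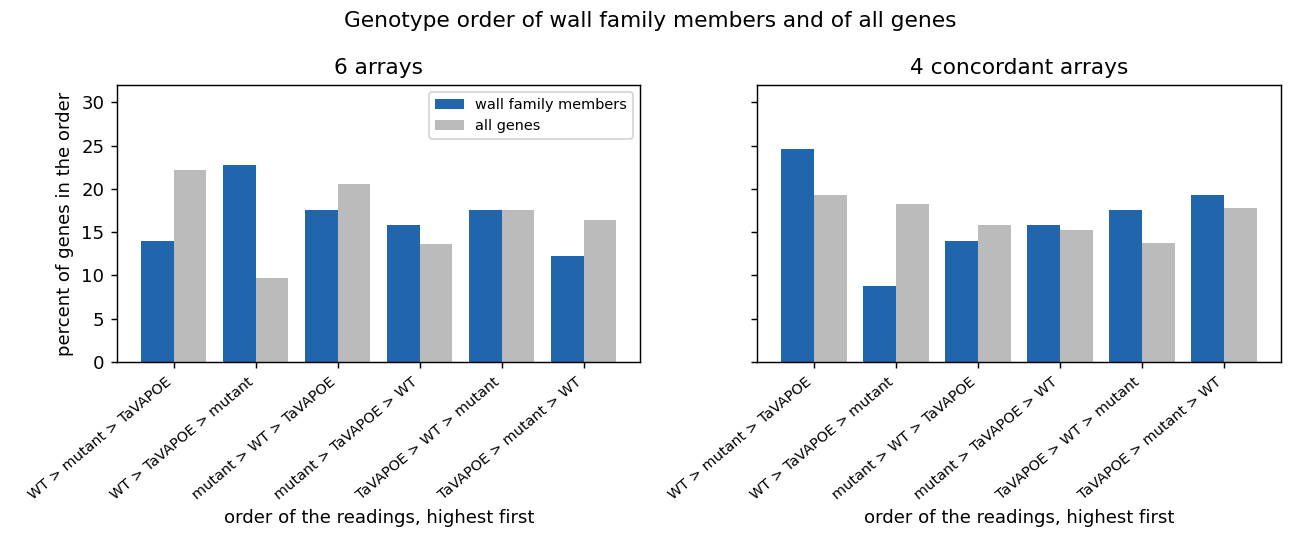
Percent of the 57 wall family genes (blue) and of all 13356 genes (grey) in each of the 6 orders of the genotype readings, over 6 arrays (left) and the 4 concordant arrays (right). WT > TaVAPOE > mutant holds 22.8% of the wall genes on the left and 8.77% on the right.

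Some members are neighbours on a chromosome in the RefSeq gene table of TAIR10.1. XTH18 and XTH19, genes of a root-expressed group, have no protein-coding gene between them. On the concordant arrays XTH19 read 3.77 in WT, 3.47 in the mutant, and 2.83 and 3.34 in TaVAPOE, so like XTH18 it was lowest in TaVAPOE, with a smaller gap of -0.68 ± 0.28 from WT; WT replicate 1 read XTH19 at 0.91 and the 6-array difference was 0.75 ± 0.95. TBL28 and TBL30 are also adjacent. TBL30 read below 1.66 on all 6 arrays, while TBL28 was higher in TaVAPOE than in WT. TBL19 and TBL21, another adjacent pair, both had their highest readings outside TaVAPOE, at 4.18 on mutant replicate 1 for TBL19 and 2.15 on the same array for TBL21. TBL19 read 0.90 and 2.66 in WT, 1.45 on mutant replicate 2, and 1.52 and 0.49 in TaVAPOE, so its -1.66 ± 0.47 from WT over 4 arrays became -1.005 with readings raised to the 20th percentile. EXPA21 and EXPA24 lie 4 protein-coding genes apart; EXPA21 was higher and EXPA24 lower on both mutant arrays than on both WT arrays.

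Wall genes outside these families were read from a list of 234 symbols (cellulose, xylan, xyloglucan and pectin synthesis, hydrolases, wall sensors and regulators), of which 26 were measured. Over 6 arrays 0 of 26 passed in any comparison in limma. Over the 4 concordant arrays 1 passed, ECS1, a wall protein gene. It read 3.45 and 2.25 in WT, 3.66 and 2.77 in the mutant, and 8.42 and 8.51 in TaVAPOE. Over the 4 arrays it was higher in TaVAPOE than in WT by 6.21 ± 0.19 log units (adjusted p = 0.0251) and than in the mutant by 5.69 ± 0.19 (adjusted p = 0.0191), while over 6 arrays the differences were 5.61 ± 0.61 (adjusted p = 0.843) and 5.25 ± 0.61 (adjusted p = 0.865). The median over the 26 between TaVAPOE and WT was 0.06 over 6 arrays and 0.07 over 4.

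SKU5, a membrane-anchored protein of directional root growth, read 3.22 and 4.04 in WT, 4.25 and 5.57 in the mutant, and 5.98 and 5.81 in TaVAPOE. It was thus higher than WT on every array of both lines, by 1.28 ± 0.63 in the mutant and 2.26 ± 0.63 in TaVAPOE over 6 arrays. GH9C2, an endoglucanase-family gene, read 4.81 and 4.43 in TaVAPOE and 2.55 to 3.25 on the other 4 arrays (1.93 ± 0.46 above WT over 6 arrays). GH9B13 of the same family was highest in TaVAPOE too, at 6.15 and 5.83 against 2.74 to 5.10.

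The expansin-like genes EXLA1 and EXLA3 and the receptor kinases THE1 and FER, which sense the wall, read lower in TaVAPOE than in WT on the concordant arrays. The differences were -1.32 ± 0.19, -0.81 ± 0.20, -0.84 ± 0.22 and -0.40 ± 0.20, and none passed. With quantile normalization of the 4 arrays, 4 of the 26 genes passed between TaVAPOE and WT, ECS1, SKU5, GH9C2 and EXLA1 (adjusted p = 0.00253, 0.0302, 0.0409 and 0.0365), and 2 between TaVAPOE and mutant, ECS1 and GH9B13 (0.00222 and 0.0389). That normalization was chosen after seeing the data. With it 3.22% of all probe sets passed between TaVAPOE and WT and 0.906% between TaVAPOE and mutant. WT replicate 1 read EXLA1, EXLA3, THE1 and FER below both TaVAPOE arrays, at 5.41, 4.31, 4.15 and 4.47. Over 6 arrays their differences were -0.16, 0.34, 0.08 and 0.81.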

How the data were processed

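Each array was hybridised with biotin-labelled cRNA from whole seedlings, per the labels' protocols. The deposited values are a log-like score per probe set. The sources used here do not give its log base or how the authors summarised and normalized it; the only tool in the submitters' processing notes is Agilent Feature Extraction, which is not made for Affymetrix arrays. Values were used as deposited, after 64 control probe sets were left out, and differences in the design's log2 terms are therefore in log units of unknown base. Genes came from the platform annotation, matched by Entrez identifier to RefSeq (TAIR10.1). Limma 3.58.1 (R 4.3.3) fitted a mean per genotype to all 22746 probe sets, with Benjamini-Hochberg adjustment within a comparison. The fit over 6 arrays left 3 residual degrees of freedom, and that over 4 left 1, from the TaVAPOE pair. The 6-array fit was run on simulated data with the same noise on every array and no discordant array. That run checked the code, not the error rates in these data. The number of arrays limits the precision. Members and lists were chosen with earlier results of these data known. Named genes are, per comparison, the largest differences in each direction above the median reading, over 6 arrays only where groups do not overlap, with the brightest gene of each family; others named were chosen after their values were seen.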

Additional observations from a re-analysis of the deposited data

How the results depend on the processing

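The count of members past an adjusted p of 0.05 was 0 in all 3 comparisons under all of the following: the 4 concordant arrays, leaving out each array, the replicate block, fits to the compared groups only, quantile normalization, a filter at the 40th percentile, array medians set equal, robust moderation with a trend on intensity, array quality weights, readings raised to the 20th percentile, and removal of the probe set that can match several transcripts. The exception was chosen after seeing the data. With quantile normalization among the 4 concordant arrays, 4 members passed between TaVAPOE and WT (EXPA4, TBL36, XTH18 and XTH21, adjusted p = 0.0272, 0.0272, 0.0412 and 0.0461) and 3 between TaVAPOE and mutant (TBL36, EXPA4 and XTH18), where XTH18 turned from 0.18 to -1.61. That setting called 732 and 206 of all probe sets, against 9 and 15 without it; the cause was not tested. With the floor on the same 4 arrays, also added later, 0 passed. With the replicate block the member medians were -0.11, -0.03 and 0.09, and 0 members passed. The replicate numbers were not taken to pair the samples. Deviations of same-numbered arrays from their group means correlated at 0.58 between WT and mutant. With TaVAPOE they correlated at 0.01 for WT and 0.09 for the mutant. The value of 0.58 involves both discordant arrays, and whether it reflects pairing was not tested.

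The median difference of the members moved by more than the spread of the array medians (0.09) in these cases. Between mutant and WT it was -0.0041 over the 4 concordant arrays, 0 with the floor there and -0.29 with quantile normalization. Between TaVAPOE and WT it was 0.36 with the filter, which kept 35 members and under which all probe sets had 0.42, and 0.067 with quantile normalization of the 4 arrays. Between TaVAPOE and mutant it was -0.053 over the 4 arrays, -0.056 with quantile normalization of them, 0 with the floor there and 0.23 with the filter. Leaving out single arrays gave -0.20 to -0.05 between mutant and WT, -0.03 to 0.05 between TaVAPOE and WT, and -0.053 to 0.13 between TaVAPOE and mutant, where mutant replicate 1 gave the lowest value. Of the genes named by the rule, 8 of 14 had the same sign in all 17 alternatives between mutant and WT, 10 of 15 between TaVAPOE and WT (TBL36, EXPA4, EXPB3 and XTH32 among them) and 8 of 12 between TaVAPOE and mutant. Several alternatives could not turn a sign. The filter, the replicate block, fits to the compared groups, the intensity trend and the array weights left each gene's difference unchanged. Genes named because their groups did not overlap over 6 arrays could not turn either when arrays were left out. Between TaVAPOE and WT these were TBL36, EXPA4, XTH32, PRP39, XTH18, XTH33, TBL35 and CSLA03. EXPB3, TBL25 and CSLC04, named otherwise, did not overlap there either. Between mutant and WT they were TBL39, TBL23, EXPB3 and TBL35. Between TaVAPOE and mutant they were TBL36, XTH32, EXPB3 and EXPA4, and EXPA15 and TBL39 did not overlap either. The counts of kept signs were thus partly fixed by the choice of genes. Between TaVAPOE and WT the sign turned in 6 alternatives for TBL37, 5 for CSLD2, 4 for XTH19, and 1 each for CSLC04 and TBL38.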
